A study of Mus musculus with 46 samples.

Results

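The change of the Lmna effect between 1 and 2 weeks after tamoxifen was examined in mouse hearts. For every gene it was taken as a difference of differences: the log2 fold change of F/F against wild type at 2 weeks minus the same log2 fold change at 1 week. A positive value means that the effect of the deletion was higher at 2 weeks than at 1 week, and a negative value that it was lower. All 21 libraries of these times from the NEBNext kit (Ultra II Directional) were used, of 46 libraries in the series. At 1 week there were 4 libraries of the genotype Lmna F/F; My6MCM Tg/0 (as the labels spell it), here called F/F, and 5 of the genotype Lmna +/+; Myh6MCM Tg/0, here called wild type. At 2 weeks there were 5 F/F and 7 wild type libraries. Females were 1 of 4 F/F and 2 of 5 wild type libraries at 1 week, and 3 of 5 F/F and 2 of 7 wild type libraries at 2 weeks. The fit held 1 sex term for all times and none for an effect of the deletion that depends on sex. Every mouse, controls included, carried the Myh6MCM transgene and had received tamoxifen by intraperitoneal injection at 6 to 8 weeks of age, on 4 days in a row, 100 µL a day of a 4 mg per mL solution in corn oil. Myh6MCM is a Cre recombinase that the promoter of the cardiac myosin gene Myh6 drives in cardiomyocytes and that tamoxifen activates. The deletion is thus aimed at 1 cell type, while the RNA comes from whole perfused hearts with all their cells. Whether every library stands for its own animal is not stated in the labels. The p-values therefore describe library-to-library spread, which may be partly technical.

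Lamins A and C, both encoded by Lmna, form a meshwork under the inner nuclear membrane that gives the nucleus its stiffness and tethers chromatin. Hearts depend on it strongly: mutations of LMNA in people cause dilated cardiomyopathy with conduction disease. Loss of lamin A/C in cardiomyocytes is known to be followed by nuclear rupture, inflammation, fibrosis and loss of contractile function. The comparison asks which of these responses appear, and which transcripts change direction, between the first and the second week.

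The targeted gene was examined before any other. At 1 week the F/F libraries held 33.6, 35.6, 27.0 and 36.9 normalised CPM, that is counts divided by the TMM-adjusted library size, of Lmna and the wild type libraries 67.7, 45.0, 66.8, 59.2 and 56.3, without overlap. At 2 weeks the F/F libraries held 42.2, 108, 108, 82.8 and 84.9 CPM and the wild type libraries from 105 to 125 (median 111), with overlap. The effect on Lmna was -0.82 ± 0.22 (log2, ± SE) at 1 week and -0.46 ± 0.21 at 2 weeks, and its change of 0.36 ± 0.30 (95% interval -0.26 to 0.98) was not called (edgeR adjusted p = 0.453). Cgas, the cytosolic DNA sensor, stood at 0.387, 0.404, 0.333 and 0.354 CPM in F/F and at 0.297 to 0.98 CPM in wild type libraries of 1 week. At 2 weeks it stood at 1.29, 1.52, 2.72, 1.80 and 1.64 CPM in F/F and at 0.251 to 0.852 CPM in wild type libraries, so that the genotypes overlapped at 1 week and were apart at 2 weeks. Its effect was higher at 2 weeks by 2.13 ± 0.51 (edgeR adjusted p = 0.00961).

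Cardiomyocyte markers were high in every library, as the tissue label asks: their summed level ran from 59760 to 183949 CPM over the 21 libraries. Total counts ran from 8477358 to 25650922. Mitochondrially encoded transcripts took 9.16 to 31.7% of counts, and the atrial gene Sln was above 10 CPM in 2 F/F and 4 wild type libraries, all of 2 weeks. Each time was sequenced in its own pool (pool identifiers KIUC030 at 1 week, KIUC033 and KIUC035 at 2 weeks), so time and pool cannot be told apart, and no level is compared across times. The GC content of a gene moved with both effects. Across 8034 genes of at least 8 CPM, which are not independent replicates, the correlation with GC content was 0.655 for the 1 week effect (rho 0.707), -0.146 for the 2 week effect (rho -0.205) and -0.414 for their difference (rho -0.497). F/F replicate 1 of 2 weeks stood closest to wild type among the F/F libraries of that time in each of the 9 list scores plotted below, and had the largest mitochondrial share of its group, 28.9% against 9.16 to 15.2% in the other 4. The same library held the least Lmna of its group, the first of the values listed above. It was not closest in every list: its glycolysis score was -0.451, against -0.176 to -0.478 in the other 4.

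The Lmna effect changed between the times at 1938 of 15627 genes tested (12.4%; edgeR quasi-likelihood test, Benjamini-Hochberg adjusted p under 0.05). It was higher at 2 weeks at 1019 genes (6.52%) and lower at 919 (5.88%). The test of each time alone called 4 genes at 1 week (0.0256%) and 4562 at 2 weeks (29.2%). Genes called higher had a median effect of -0.21 at 1 week and 1.26 at 2 weeks, and those called lower a median of 0.26 at 1 week and -0.66 at 2 weeks. Choosing genes by the difference favours 1 week effects opposite to the call, so these medians are a description. Of all called genes, 1 that was higher and 1 that was lower had an unadjusted p under 0.05 at 1 week with the same sign as at 2 weeks. The same choice disfavours such genes, so these counts are a description too. Across all genes, which are not independent replicates, the 1 week and the 2 week effects had a correlation of 0.05 (rho = -0.004). The median SE of a difference was 0.31, and the smallest called difference was 0.46. For 813 genes the 95% interval of the difference lay within 0.5 of 0. With the libraries of 2 weeks limited to pool KIUC033 (2 F/F and 5 wild type) edgeR called 0 differences, with 2646 genes at an unadjusted p under 0.05, and limma-voom called 2. With pool KIUC035 alone (3 F/F and 2 wild type) edgeR called 1793. A fit of all libraries with a separate 2 week effect for each pool called 62 differences in KIUC033 (0.397%) and 1788 in KIUC035 (11.4%), of which 61 and 1434 were among the 1938. In that fit 20 of the 101 called genes named here were called in KIUC033, among them Lgals3, Cybb, Timp1, Fgl2, Serpina3n and Mybpc3 (edgeR adjusted p from 0.0282 to 0.0368), and all 101 had the same sign in each pool. These genes were chosen with both pools together, and both differences subtract the same 1 week effect. Shared signs and shared calls were thus favoured in advance and are a description.

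**Figure D1:**
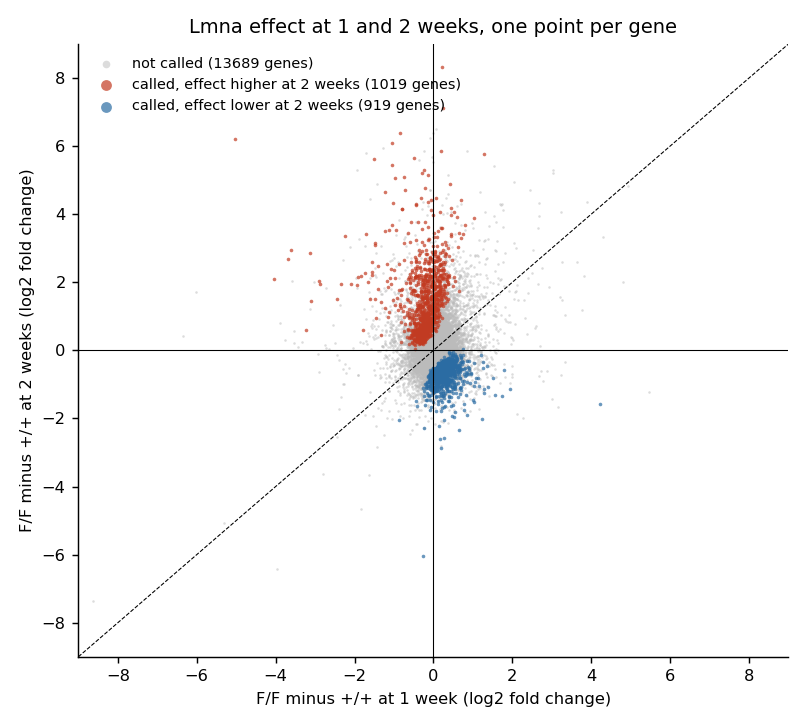
Effect of Lmna F/F against wild type at 1 week (horizontal, log2 fold change) and 2 weeks (vertical, log2 fold change), one point per tested gene, coloured by the call on the difference. The 1019 genes called higher lie above the dashed line of equal effects and the 919 called lower lie below it, and the genes called higher spread mostly along the vertical axis.

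Most macrophage transcripts had a higher effect at 2 weeks. Of 28 macrophage and monocyte markers tested, 21 had a higher effect at 2 weeks and 0 a lower one, with a median effect of 0.00 at 1 week and 2.01 at 2 weeks, against medians of -0.005 and 0.04 over all genes. Lgals3, the lectin galectin 3 made by activated macrophages, stood at 4.96, 5.83, 5.82 and 6.72 CPM in F/F libraries of 1 week and at 3.39 to 7.91 CPM in wild type. The libraries of 2 weeks held it at 22.6, 117, 198, 151 and 159 CPM in F/F and at 3.03 to 9.61 CPM (median 4.46) in wild type. The genotypes overlapped at 1 week and were fully apart at 2 weeks, and the effect was higher by 4.47 ± 0.64 (edgeR adjusted p = 0.0011). Cybb, the catalytic subunit of the phagocyte NADPH oxidase, gained 2.37 ± 0.32, Ctss (cathepsin S) 2.81 ± 0.43 and Itgam, the integrin chain CD11b, 2.47 ± 0.42 (edgeR adjusted p = 0.0011, 0.00115 and 0.00183). The macrophage list summed at 1 week to 640–734 CPM (F/F) and 503–821 CPM (wild type), and at 2 weeks to 918–3564 CPM (F/F) and 521–749 CPM (wild type). In bulk RNA more cells of a type and more RNA per cell cannot be told apart.

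Lymphocyte and granulocyte markers were far less abundant. T and NK cell markers summed to 7.75 to 12.4 CPM in F/F and 6.97 to 15.4 CPM in wild type at 1 week, and to 11.7 to 47.3 CPM in F/F and 5.76 to 13.7 CPM in wild type at 2 weeks. Among 18 of them 3 were called higher, with Ccl5, a chemokine of T and NK cells, at 2.17 ± 0.62 (edgeR adjusted p = 0.0251). Of 9 neutrophil markers tested 2 were called higher, among them the C-type lectin gene Clec4d at 4.55 ± 0.82 (edgeR adjusted p = 0.00205), while the defining genes Ly6g, Camp, Mmp8 and Cxcr2 did not pass the filter on low counts. Of 6 B cell markers 1 was called lower, as was 1 of 6 adipocyte markers, and neither list had a member called higher. Schwann cell, epicardial and erythroid markers had 0 calls by edgeR in either direction (1, 0 and 0 at an unadjusted p under 0.05). The call of Ccl5 was lost when any 1 of 6 libraries was left out (adjusted p = 0.0502 to 0.0798) and in the fit without sex (0.0821).

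Secreted signals changed in the same direction. Of 28 cytokines and chemokines 16 had a higher effect at 2 weeks and 0 a lower one (median difference 2.63). The filter on low counts can admit a gene through F/F libraries of 2 weeks alone, and such a member can hardly be called lower. Counts and medians of this list may be partly set by that, as may those of any other list with members of low level. The interleukin 6, neutrophil, T and NK cell and stressed cardiomyocyte lists have such members. The size of this part was not tested in any list. Ccl7, which attracts monocytes, stood at 1.78, 4.33, 5.43 and 5.52 CPM in F/F and 2.18 to 3.83 CPM in wild type libraries of 1 week. After 2 weeks it stood at 5.16, 37.2, 53.1, 26 and 25.7 CPM in F/F and at 0.443 to 1.90 CPM in wild type. The groups overlapped at 1 week and did not at 2 weeks, for a difference of 4.46 ± 0.73 (edgeR adjusted p = 0.00142). Ccl8 and Ccl9, chemokines of the same family, gained 4.70 ± 0.90 and 2.42 ± 0.42. Il1rn, which blocks the interleukin 1 receptor, stood below 1 CPM in all libraries of 1 week, and at 0.954, 9.11, 25.0, 12.4 and 11.7 CPM in F/F against 0 to 0.423 CPM in wild type libraries of 2 weeks. Its difference was 6.16 ± 1.22 (edgeR adjusted p = 0.00298).

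The interleukin 6 family signals through STAT3 and induces acute phase genes. Of 22 genes of this family and its acute phase targets, 4 of which are also among the cytokines above, 13 were called higher and 0 lower (median difference 2.83). Serpina3n, a secreted protease inhibitor, stood at 5.73, 12.4, 9.93 and 9.91 CPM in F/F and at 4.70 to 18.7 CPM in wild type libraries of 1 week. Its 2 week levels were 71.3, 415, 638, 329.6 and 305 CPM in F/F and 5.56 to 21.1 CPM in wild type. Its 2 week effect of 5.22 ± 0.61 followed a 1 week effect of -0.28 ± 0.60, a difference of 5.51 ± 0.88 (edgeR adjusted p = 0.0013). The pentraxin gene Ptx3 gained 5.29 ± 0.98, Socs3, the feedback inhibitor of this pathway, 3.32 ± 0.62, and Fgl2, a fibrinogen-like prothrombinase, 2.49 ± 0.35. Saa3 (serum amyloid A3) had a difference of 5.83 ± 1.89, but its call was lost without any 1 of 14 of the 21 libraries. The call was also lost with limma-voom, with or without quality weights, in the fit without sex and with either pool alone. Under the GC correction described below it was lost too (edgeR adjusted p = 0.0653). On the log2(TPM + 1) scale of the deposited TPM, which understates changes of low genes, the median difference was 1.24 for the interleukin 6 and acute phase list and 1.66 for the cytokines.

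Complement and antigen presentation genes also had calls in 1 direction. Of 16 complement genes 10 were called higher (median effect 0.11 at 1 week and 1.63 at 2 weeks), among them C3ar1, the receptor of the C3a fragment, at 2.41 ± 0.44 and Cfp (properdin) at 1.92 ± 0.39. Of 17 antigen presentation genes 3 were called higher, and their median effect was 0.44 at 1 week and 1.39 at 2 weeks. B2m, the light chain of class I molecules, gained 1.13 ± 0.29 (edgeR adjusted p = 0.0143), a call that was lost without F/F replicate 1 of 1 week (adjusted p = 0.0522) and under the GC correction described below (adjusted p = 0.153).

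Interferon-stimulated genes had 18 of 41 members with a higher effect at 2 weeks and 0 with a lower one (median effect 0.08 at 1 week and 1.09 at 2 weeks). Ifi27l2a, a mitochondrial protein gene that interferon induces, stood at 77.9, 67.3, 52.8 and 86.4 CPM in F/F and at 64.4 to 120.2 CPM in wild type libraries of 1 week. In the second week it stood at 33.2, 305, 359, 193 and 223 CPM in F/F and at 23.2 to 61.6 CPM in wild type. F/F replicate 1 of 2 weeks lay inside the wild type range and the other 4 lay above it. The effect was higher by 2.42 ± 0.52 (edgeR adjusted p = 0.00512). Trim30a, a ubiquitin ligase gene, gained 1.33 ± 0.30 and Samhd1, which degrades deoxynucleotides, 0.91 ± 0.21. Among 17 genes of cytosolic DNA sensing, to which Cgas belongs, 7 were called higher and 0 lower (median difference 1.20). Zbp1, which senses left-handed nucleic acids, stood at 2.56, 3.93, 2.55 and 2.41 CPM in F/F and at 0.821 to 5.05 CPM in wild type libraries of 1 week. At 2 weeks it stood at 2.64, 26.9, 41.7, 23.3 and 25.6 CPM in F/F and at 0.592 to 2.95 CPM in wild type, so that F/F replicate 1 again lay inside the wild type range. Its difference was 3.38 ± 0.79 (edgeR adjusted p = 0.00798), and the adjusted p was 0.0531 without F/F replicate 2 of 2 weeks and 0.0569 with limma-voom. Ifi204, a DNA-binding interferon-induced gene, gained 2.64 ± 0.42. Of 17 cell death and inflammasome genes 7 were called higher, with Casp4 (the inflammatory caspase 11) at 2.26 ± 0.53 and Ripk3, the kinase of necroptosis, at 1.39 ± 0.34.

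Promoters of these genes were read from RefSeq (GRCm38.p6), which gave a promoter for 11426 of 15622 gene names tested, 797 of those called higher and 720 of those called lower. The 250 bases before each start were searched on both strands for the interferon-stimulated response element (GAAA, any 2 bases, GAAA) and TGANTCA, the binding motif of AP-1. The first was in 7.53% of promoters of genes called higher, 2.08% of those called lower and 3.26% of all. By list it was in 14 of the 30 interferon-stimulated, 4 of 13 DNA sensing and 1 of 12 antigen presentation genes with a promoter. The second was in 9.03%, 5% and 5.79% in the same order. By list it was in 0 of 15 matricellular and 0 of 19 immediate early genes with a promoter. It was in 5 of 18 matrix proteases and inhibitors and 3 of 18 genes of stressed cardiomyocytes. The interleukin 6 and cytokine lists, which share members, held it in 5 of 19 and 6 of 21. The motif of estrogen-related receptors (the half-site AGGTCA preceded by TCA) was in 0.502%, 0.417% and 0.298%. These shares rest on few promoters: 4 of 797, 3 of 720 and 34 of 11426. The median GC content of the genes was 46.0% among those called higher and 55.3% among those called lower, and its part in these shares was not tested. A stretch of 70 bases before the start is printed for 6 called genes described here that hold a motif, 2 with the interferon element and 4 with the AP-1 motif, with every match in capitals. Sequences run 5′ to 3′ on the strand of the gene, and Il1rn and Trim30a have further starts that are not shown.
Sprr1a (chr3:92485959-92486028, minus strand, 147 to 78 bases before the start): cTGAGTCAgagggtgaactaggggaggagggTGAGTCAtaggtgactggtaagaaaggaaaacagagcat
Il1rn (chr2:24336688-24336757, plus strand, 172 to 103 bases before the start): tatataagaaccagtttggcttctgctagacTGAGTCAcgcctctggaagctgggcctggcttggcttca
Trim30a (chr7:104465194-104465263, minus strand, 70 to 1 bases before the start): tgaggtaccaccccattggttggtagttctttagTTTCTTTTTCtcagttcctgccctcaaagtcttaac
B2m (chr2:122147518-122147587, plus strand, 169 to 100 bases before the start): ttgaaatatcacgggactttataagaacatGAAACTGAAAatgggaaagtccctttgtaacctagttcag
Fgl2 (chr5:21372603-21372672, plus strand, 70 to 1 bases before the start): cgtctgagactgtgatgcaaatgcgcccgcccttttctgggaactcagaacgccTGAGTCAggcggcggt
Ccl9 (chr11:83578651-83578720, minus strand, 84 to 15 bases before the start): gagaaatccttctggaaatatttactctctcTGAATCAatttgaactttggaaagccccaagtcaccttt
The elements of Trim30a and B2m are the interferon motif, which in Trim30a reads on the opposite strand, and those of Sprr1a, Il1rn, Fgl2 and Ccl9 are the AP-1 motif, of which Sprr1a holds a pair in this stretch. A match is a description of the letters and not evidence of binding.

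Fibroblast genes changed by class. Of 25 matricellular and activated fibroblast genes 10 had a higher effect at 2 weeks and 0 a lower one, with a median effect of 0.11 at 1 week and 1.34 at 2 weeks. Postn (periostin), a matricellular protein of activated fibroblasts, stood at 14.6, 16.4, 6.21 and 16.0 CPM in F/F and at 6.84 to 15.9 CPM in wild type libraries of 1 week. The libraries of 2 weeks held it at 58.1, 459.7, 369, 205 and 176 CPM in F/F and at 12.2 to 57.6 CPM (median 34.9) in wild type, with the lowest F/F library just above the highest wild type library. The difference was 2.98 ± 0.70 (edgeR adjusted p = 0.00857, and 0.0604 without F/F replicate 2 of 2 weeks). Spp1 (osteopontin) gained 6.88 ± 1.93 (edgeR adjusted p = 0.0215, and 0.0656 without wild type replicate 5 of 1 week), Cthrc1, a secreted collagen-associated protein gene, 5.53 ± 1.35 (adjusted p = 0.0659 with limma-voom), and Thbs4 (thrombospondin 4) 2.77 ± 0.50.

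Structural matrix genes were mixed, with 7 of 38 called higher and 2 lower (median effect 0.25 at 1 week and 0.64 at 2 weeks). Vcan (versican) and Col8a1, a short-chain collagen, gained 1.92 ± 0.48 and 1.87 ± 0.48, while Lamb2, the laminin beta 2 chain of basement membranes, had a difference of -0.84 ± 0.17, from an effect of 0.43 at 1 week to -0.41 at 2 weeks. Among 16 resting fibroblast markers 4 were called higher. Lum (lumican), a small proteoglycan, stood at 91.9, 119.9, 78.4 and 133 CPM in F/F and at 123 to 189 CPM in wild type libraries of 1 week. After 2 weeks it stood at 110.0, 210.1, 174, 182 and 175 CPM in F/F and at 55.7 to 117 CPM in wild type, with an overlap at each time. Its difference was 1.36 ± 0.33 (edgeR adjusted p = 0.00984). Mfap5, a microfibril gene, gained 1.79 ± 0.48. Of 20 collagen maturation genes 3 were called higher, among them the lysyl oxidase Loxl2 (1.53 ± 0.41) and the lysyl hydroxylase Plod2 (1.01 ± 0.26), and 1 lower. Without F/F replicate 2 of 2 weeks the adjusted p was 0.0577 for Col8a1, 0.0589 for Loxl2 and 0.0608 for Mfap5, and Mfap5 also lost its call without F/F replicate 1 of 1 week.

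Of 27 matrix proteases and inhibitors 10 were called higher and 2 lower. Timp1, the inhibitor of metalloproteinases, stood at 5.34, 5.20, 5.38 and 5.59 CPM in F/F and at 2.87 to 6.31 CPM in wild type libraries of 1 week. Its 2 week levels were 19.4, 362, 706, 293 and 325 CPM in F/F and 2.81 to 9.65 CPM in wild type, fully apart. Its difference of 5.65 ± 0.82 (edgeR adjusted p = 0.0011) was among the 8 largest positive ones of genes with at least 1 CPM on average. Adam8 and Mmp19, proteases of leukocytes and matrix, gained 4.19 ± 0.84 and 2.32 ± 0.49, while Mmp15, a membrane-bound metalloproteinase, had a difference of -1.53 ± 0.29. Among 26 TGF-beta and activin genes 4 were called higher, with the ligand Tgfb2 at 1.34 ± 0.37 and the receptor Tgfbr1 at 1.21 ± 0.30. The call of Tgfb2 was lost without F/F replicate 1 or 3 of 1 week (adjusted p = 0.0508 and 0.0514). Of 25 integrin and focal adhesion genes 2 were called higher, among them the integrin chain Itgb1 (0.82 ± 0.21), and 1 lower, its muscle-specific binding partner Itgb1bp2 (-0.86 ± 0.22). These shares of 8% and 4% were near those of all genes tested (6.52% and 5.88%).

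**Figure D2:**
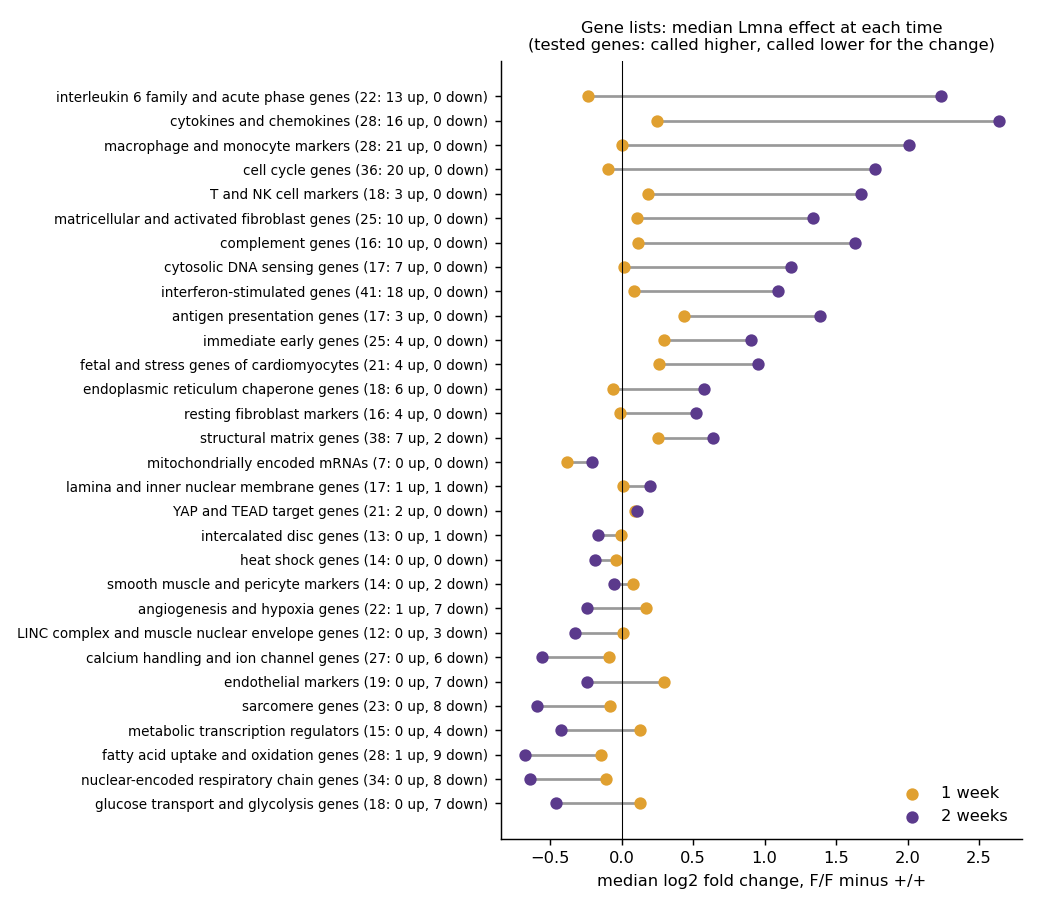
Median log2 fold change of F/F against wild type at 1 week and 2 weeks for 30 of the 50 gene lists, with the number of tested genes and of those called higher and lower for the change in parentheses. At 2 weeks the medians run from 1.09 for interferon-stimulated genes to 2.64 for cytokines among the immune, cell cycle and matricellular lists, and lie below 0 for the metabolic, contractile and endothelial lists.

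Genes of stressed cardiomyocytes had 4 of 21 members with a higher effect at 2 weeks and 0 with a lower one. Sprr1a, a small proline-rich protein induced in stressed heart muscle, had the largest difference among named genes. It stood at 0.0775, 0.0578, 0.277 and 0.212 CPM in F/F and at 0 to 0.573 CPM in wild type libraries of 1 week, at the limit of detection. In the second week it stood at 0.898, 24.2, 128, 47.2 and 26.7 CPM in F/F and at 0 to 0.329 CPM in wild type, without overlap. The fitted difference of 8.10 ± 2.35 (edgeR adjusted p = 0.026) rests on these few reads at 1 week and was lost without wild type replicate 4 or 5 of that time (adjusted p = 0.079 and 0.197) and with limma-voom (0.0534). Rtn4, a membrane protein of the endoplasmic reticulum, gained 1.52 ± 0.27 and the transcription factor Runx1 2.09 ± 0.50. Nppa, the atrial natriuretic peptide, had a difference of 1.07 ± 0.71 and Ankrd1, a stretch-responsive sarcomere protein, one of 1.30 ± 0.44, and neither was called (edgeR adjusted p = 0.326 and 0.0533). Of 25 immediate early genes 4 were called higher, among them Btg2, an antiproliferative gene, at 1.22 ± 0.34, a call that was lost without F/F replicates 2 or 3 or wild type replicate 7 of 2 weeks (adjusted p = 0.0557 to 0.0705). YAP and TEAD targets had 2 of 21 members called higher (median difference 0.17), 9.52% against 6.52% of all genes tested.

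Of 18 endoplasmic reticulum chaperone genes 6 were called higher and 0 lower, with the disulfide isomerase Pdia3 at 1.03 ± 0.24 and the co-chaperone Dnajb9 at 0.91 ± 0.18. Heat shock genes had 0 of 14 members called in either direction by edgeR (3 at an unadjusted p under 0.05), with a range of differences from -0.55 to 0.63. The integrated stress response and serine synthesis list had 3 of 22 called higher and 2 lower. Psat1, the aminotransferase of serine synthesis, stood at 4.96, 6.58, 6.71 and 4.39 CPM in F/F and at 4.13 to 8.86 CPM in wild type libraries of 1 week. At 2 weeks it stood at 10.2, 31.1, 34.5, 30.8 and 23.9 CPM in F/F and at 2.91 to 4.23 CPM in wild type, fully apart, for a difference of 2.65 ± 0.40 (edgeR adjusted p = 0.00115). Stc2 (stanniocalcin 2), on the same list, went the other way at -1.11 ± 0.31, a call that was lost without wild type replicate 7 of 2 weeks (adjusted p = 0.0527).

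Hmox1, the heme oxygenase that NRF2 induces, stood at 21.8, 20.8, 20.6 and 19.7 CPM in F/F and at 11.1 to 22.5 CPM in wild type libraries of 1 week. The libraries of 2 weeks held it at 49.1, 187, 322, 166 and 174 CPM in F/F and at 14.0 to 30.4 CPM in wild type, without overlap. It gained 2.63 ± 0.56 (edgeR adjusted p = 0.00479), 1 of 4 genes called higher among 18 of the NRF2, heme and iron list. Of 22 p53 targets 4 were called higher, among them Mdm2, the ubiquitin ligase of p53, at 0.84 ± 0.18, which went from an effect of -0.39 to 0.45, and Trp53inp1 at 1.65 ± 0.42.

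Of 36 cell cycle genes tested, 20 had a higher effect at 2 weeks and 0 a lower one, with a median effect of -0.09 at 1 week and 1.77 at 2 weeks. Rrm2, a subunit of the reductase that makes deoxynucleotides in S phase, stood at 2.40, 2.02, 2.00 and 1.84 CPM in F/F and at 1.78 to 4.70 CPM in wild type libraries of 1 week. After 2 weeks it stood at 3.48, 7.29, 11.0, 8.97 and 7.36 CPM in F/F and at 1.70 to 2.73 CPM in wild type, fully apart. Its difference was 2.19 ± 0.38 (edgeR adjusted p = 0.00183). The replication helicase gene Mcm4 gained 1.34 ± 0.27 and the spindle gene Tpx2 2.59 ± 0.56. The macrophage list moved in the same libraries, and its part in the cell cycle counts was not tested.

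**Figure D3:**
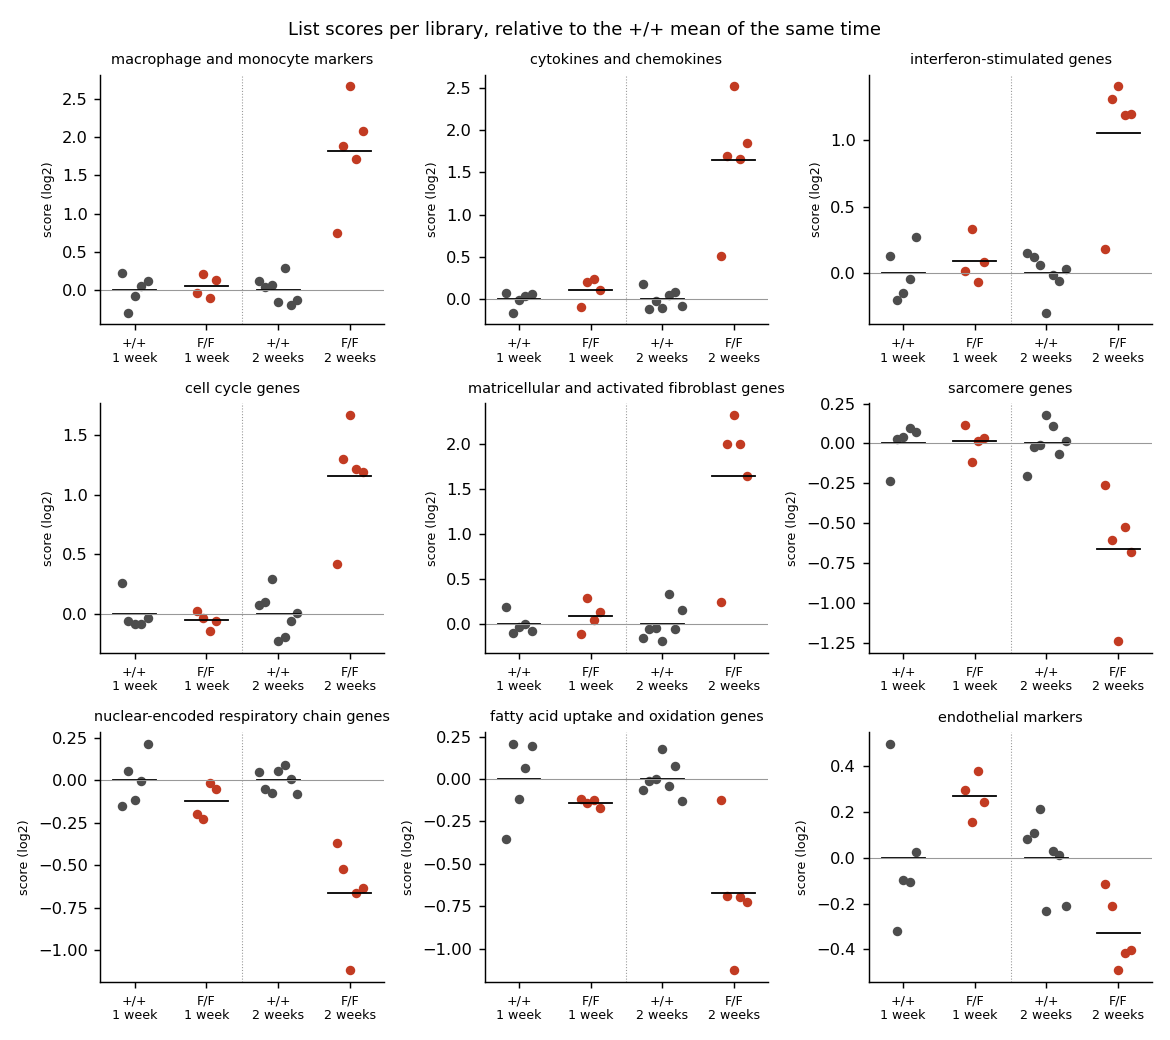
Score of 9 gene lists in each library (mean of log2(CPM + 1) over the list minus the wild type mean of the same time, so each time has its own zero), with a line at the group mean. F/F replicates 2 to 5 of 2 weeks lie outside the wild type (+/+) range of that time in every panel but the endothelial one, where replicate 2 lies inside, and F/F replicate 1 (leftmost point) is nearest to wild type in every panel.

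Metabolic and contractile genes had mostly lower calls. The markers of the cardiomyocyte itself moved with them: their summed level at 2 weeks was 59760–98166 CPM in F/F and 122937–146096 CPM in wild type, without overlap, and 6 of 14 were called lower for the change. Their part in the counts below was not tested. Of 34 nuclear-encoded respiratory chain genes 8 had a lower effect at 2 weeks and 0 a higher one (median effect -0.11 at 1 week and -0.64 at 2 weeks), among them Cyc1, cytochrome c1 of complex III (-0.86 ± 0.23). Of 17 citric acid cycle genes 5 were called lower, with Dlst, a subunit of the oxoglutarate dehydrogenase complex, at -0.83 ± 0.20. The 7 mitochondrially encoded mRNAs tested had 0 calls by edgeR, 0 at an unadjusted p under 0.05, and a median difference of 0.24. Under the GC correction described below that median was -0.28, so its sign was not stable. Of the 13 on the list 6 did not pass the filter on low counts, among them mt-Co2, mt-Co3 and mt-Atp6, and the reason was not tested. Fatty acid uptake and oxidation had 9 of 28 members called lower and 1 higher, with Cpt1b, which carries fatty acids into mitochondria, at -1.35 ± 0.35 (adjusted p = 0.0703 without the pool term) and Mlycd, which degrades its inhibitor malonyl-CoA, at -1.15 ± 0.29.

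Glucose transport and glycolysis had 7 of 18 genes called lower and 0 higher. Slc2a4, the insulin-responsive glucose transporter GLUT4, stood at 250.5, 218, 248 and 195 CPM in F/F and at 165 to 243 CPM in wild type libraries of 1 week. Its 2 week levels were 215, 147, 71.7, 94.1 and 112 CPM in F/F and 221 to 329 CPM in wild type, with F/F libraries all below. The difference was -1.26 ± 0.23 (edgeR adjusted p = 0.00206). Pfkm, the muscle phosphofructokinase, had a difference of -1.17 ± 0.22. Regulators of these programmes had 4 of 15 members called lower and 0 higher. They were Klf15, a regulator of cardiac lipid and amino acid use, the estrogen-related receptors Esrra (-1.07 ± 0.24) and Esrrb (-1.26 ± 0.30), and their muscle cofactor Perm1 (-1.29 ± 0.28). Klf15 stood at 45.2, 45.9, 54.0 and 32.8 CPM in F/F and at 23.6 to 43.0 CPM in wild type libraries of 1 week. In the second week it stood at 44.4, 24.9, 16.1, 31.7 and 40.2 CPM in F/F and at 43.8 to 85.0 CPM in wild type, with 1 F/F library inside the wild type range. Its difference was -1.52 ± 0.31 (edgeR adjusted p = 0.00378).

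Sarcomere genes had 8 of 23 members called lower and 0 higher (median effect -0.08 at 1 week and -0.59 at 2 weeks). Myh6, the main adult myosin heavy chain of the mouse heart and the gene whose promoter drives the Cre, stood at 10843, 9007, 10585 and 9017 CPM in F/F and at 6196 to 9216 CPM in wild type libraries of 1 week. At 2 weeks it stood at 10723, 7196, 4289.8, 7551 and 7318 CPM in F/F and at 10146 to 17998 CPM in wild type, with 1 F/F library inside the wild type range. The difference was -1.10 ± 0.27 (edgeR adjusted p = 0.00995). Of the other cardiomyocyte markers, Tnni3 (cardiac troponin I) had a difference of -0.83 ± 0.21 and Ckm (muscle creatine kinase) of -0.96 ± 0.24. Calcium handling and ion channel genes had 6 of 27 called lower, among them Kcnip2, a subunit of the transient outward potassium channel (-1.39 ± 0.34), Jph2 (junctophilin 2), which couples the dyad (-1.26 ± 0.29), the calcium channel gene Cacna1s (-1.59 ± 0.39) and the potassium channel gene Kcnj11 (-1.25 ± 0.28). Of 13 intercalated disc genes 1 was called lower (7.69%), near the share of all genes tested (5.88%).

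With the GC content of the genes corrected per library, an alternative chosen after seeing the data, the number called lower went from 8 to 4 for sarcomere genes, from 8 to 5 for the respiratory chain, from 9 to 3 for fatty acid oxidation and from 7 to 4 for glycolysis. The median difference went from -0.51 to -0.54, from -0.55 to -0.52, from -0.55 to -0.57 and from -0.56 to -0.33 in the same order. It was 4 for the metabolic regulators, as before, and went from 5 to 7 for the citric acid cycle. Among the metabolic and contractile genes named above, Cyc1 (adjusted p = 0.428), Tnni3 (0.163), Mlycd (0.142), Myh6 (0.11) and Jph2 (0.0569) lost their calls under it. Their differences became -0.38, -0.54, -0.73, -0.78 and -0.78.

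**Figure D4:**
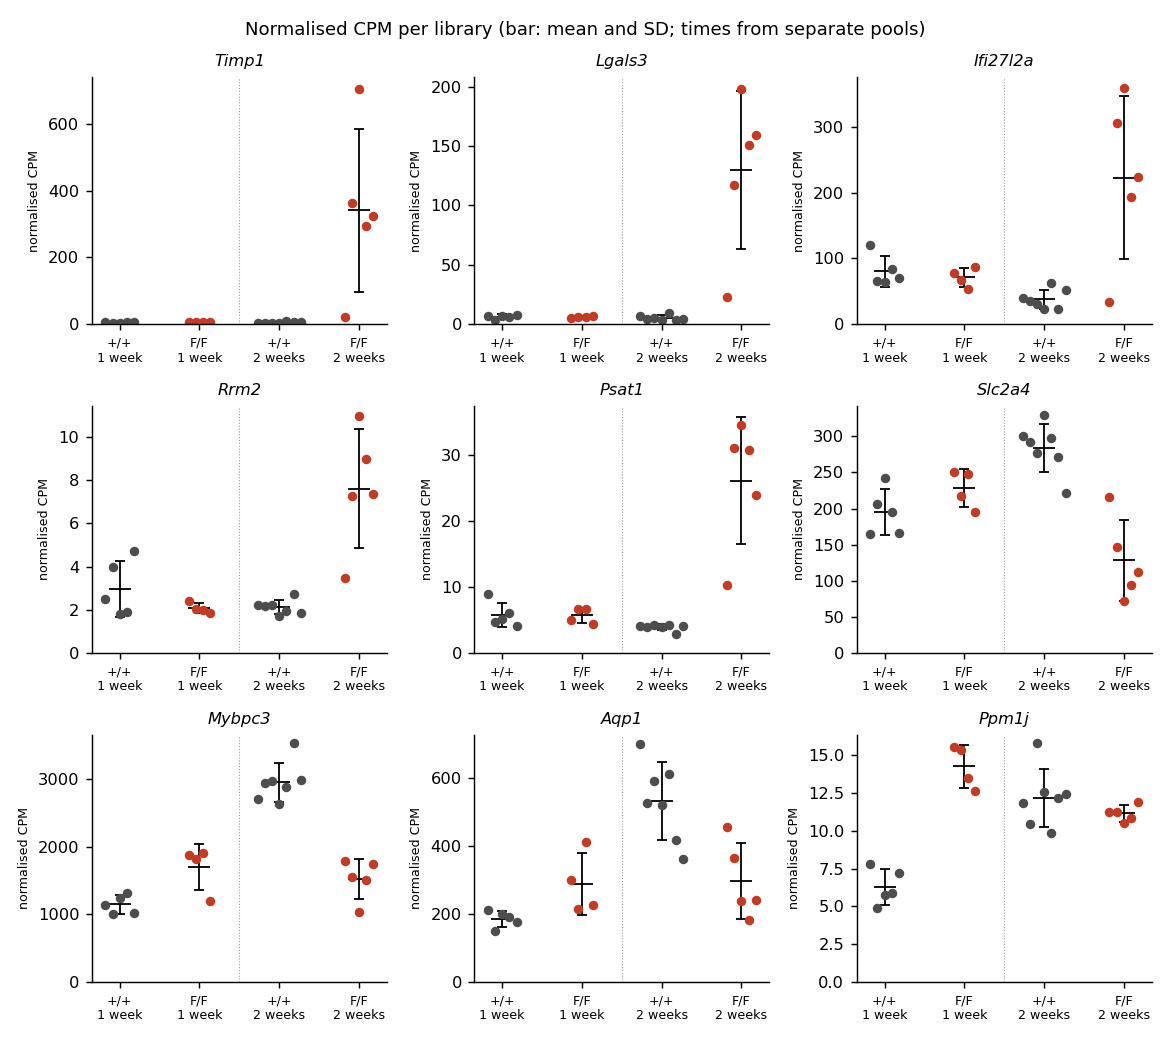
Normalised CPM of 9 genes in each library, with the mean and SD of each group beside the points; the dotted line separates the times, which were sequenced in separate pools and are not compared. Timp1, Lgals3, Rrm2, Psat1 and, but for F/F replicate 1, Ifi27l2a are apart from wild type (+/+) at 2 weeks and overlap it at 1 week. Slc2a4 is lower in F/F at 2 weeks, the means of Mybpc3 and Aqp1 are higher in F/F at 1 week and lower at 2 weeks, and Ppm1j is apart at 1 week.

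Of 19 endothelial markers 7 had a lower effect at 2 weeks than at 1 week and 0 a higher one. Their median effect was 0.29 at 1 week, where 0 were called, and -0.24 at 2 weeks, where 4 were called lower. Aqp1, the water channel of capillaries, stood at 298, 214, 411 and 225 CPM in F/F and at 148 to 211 CPM in wild type libraries of 1 week, without overlap. The libraries of 2 weeks held it at 456, 365, 236, 180.4 and 241 CPM in F/F and at 361 to 698 CPM in wild type, with 2 F/F libraries inside the wild type range. Its effect went from 0.62 ± 0.17 to -0.64 ± 0.16, a difference of -1.27 ± 0.23 (edgeR adjusted p = 0.00208). The receptor gene Tie1 went from 0.66 to -0.58 and the tight junction gene Cldn5 from 0.63 to -0.44 (differences -1.24 ± 0.32 and -1.07 ± 0.29). Of 22 angiogenesis and hypoxia genes 7 were called lower and 1 higher. The Notch ligand Dll4 stood at 11.2, 12.8, 15.6 and 6.23 CPM in F/F and at 5.05 to 8.15 CPM in wild type libraries of 1 week. After 2 weeks it stood at 13.4, 11.7, 5.22, 6.71 and 8.08 CPM in F/F and at 11.0 to 20.1 CPM in wild type, and its effect went from 0.96 to -0.70, a difference of -1.66 ± 0.33 (edgeR adjusted p = 0.00308). Apln, the peptide apelin, differed at 2 weeks, at 4.32, 2.18, 3.11, 1.54 and 2.05 CPM in F/F against 4.66 to 11.8 CPM in wild type, while its groups overlapped at 1 week. Its difference was -1.98 ± 0.40 and that of its receptor gene Aplnr -1.48 ± 0.33. Endothelial markers summed at 1 week to 1787–1966 CPM (F/F) and 1526–2304 CPM (wild type), and at 2 weeks to 1753–3512 CPM (F/F) and 2162–3797 CPM (wild type). With GC content corrected, 3 of the 19 endothelial markers and 4 of the angiogenesis genes were called lower. Cldn5 then had an adjusted p of 0.151, and without F/F replicate 1 of 1 week it was 0.0684 for Cldn5 and 0.054 for Tie1. The 1 week effect under that correction was 0.46 for Aqp1 (unadjusted p = 0.0041) and 0.77 for Dll4 (unadjusted p = 0.0041).

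Genes whose effect reversed made up 356 of the 1938 called: their unadjusted p was under 0.05 at both times with opposite signs. Choosing genes by the difference favours such reversals, so their count is a description. Of the 356 reversing genes 238 went from above to below wild type (median effect 0.44 at 1 week and -0.50 at 2 weeks) and 118 the other way (-0.42 and 0.47). Mybpc3, the cardiac myosin binding protein C of the sarcomere, stood at 1884, 1819.8, 1905 and 1189 CPM in F/F and at 1002 to 1321 CPM in wild type libraries of 1 week. Its 2 week levels were 1787, 1559, 1029.8, 1506 and 1738 CPM in F/F and 2634 to 3529 CPM in wild type. Of the F/F libraries, 3 of 4 lay above the wild type range at 1 week and all 5 below it at 2 weeks. Its effect went from 0.58 ± 0.18 to -0.99 ± 0.17 (difference -1.57 ± 0.24, edgeR adjusted p = 0.00115). Rbm38, an RNA-binding protein gene, went from 0.37 to -1.0. Pcyt2, an enzyme of phosphatidylethanolamine synthesis, went from 0.37 to -0.73, the adaptor gene Apba3 from 0.32 to -0.85, the oxysterol-binding protein gene Osbp2 from 0.42 to -1.02 and Dpysl4 from 0.61 to -1.36. Mtpn (myotrophin) went the other way. It stood at 25.2, 42.1, 33.2 and 33 CPM in F/F and at 38.7 to 54.8 CPM in wild type libraries of 1 week, and at 45.3, 47.4, 75.2, 60.2 and 48.6 CPM in F/F and 25.2 to 37.8 CPM in wild type libraries of 2 weeks, for a difference of 1.20 ± 0.20 (edgeR adjusted p = 0.00173).

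These reversals moved with GC content. Genes that went from above to below wild type had a median GC content of 56.6%, those that went the other way 43.4%, and all genes 49.9%. In the lowest of 10 equal bins of genes by GC content the median effect was -0.25 at 1 week and 0.23 at 2 weeks, with 198 genes called higher and 0 lower. In the highest bin it was 0.28 and -0.08, with 16 called higher and 246 lower. With GC content corrected per library the called genes were 1243, 779 higher and 464 lower. The correction left 953 of the 1938 calls, all with the same sign, and added 290. The reversing genes then numbered 102, of which 73 were among the 356. All 7 reversing genes named above kept their call on the difference (edgeR adjusted p at most 0.0233). At 1 week none of those 7 kept an unadjusted p under 0.05. The corrected 1 week effect was 0.38 for Mybpc3 and -0.14 for Mtpn (edgeR, unadjusted p = 0.0546 and 0.361). The part of GC content in the uncorrected reversals was otherwise not tested.

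**Figure D5:**
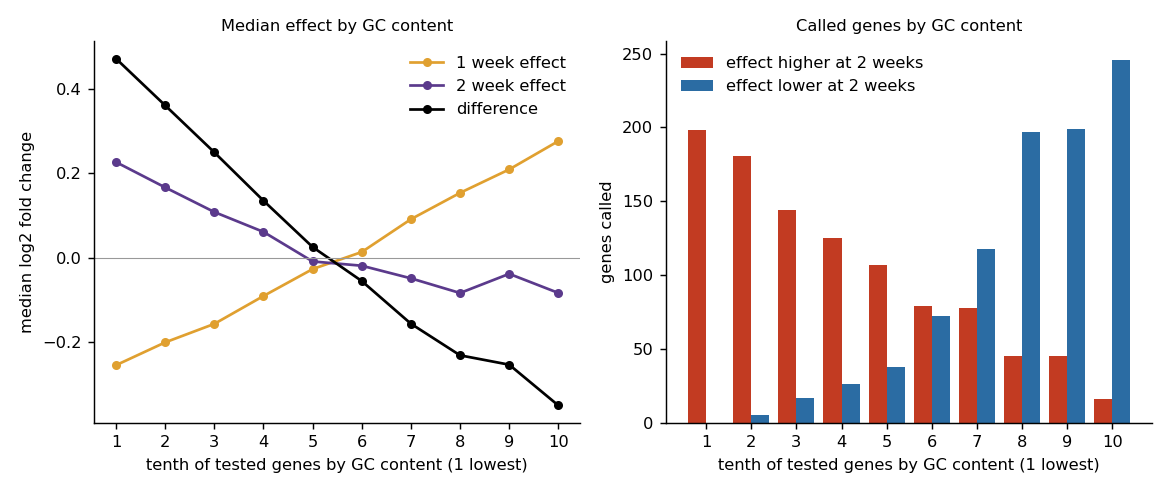
Left, the median log2 fold change at each time and the median difference in 10 equal bins of the tested genes by GC content. Right, the number of genes called higher and lower in each bin: the calls pass from 198 higher and 0 lower in the lowest bin to 16 higher and 246 lower in the highest.

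The largest negative differences belonged to genes of low level. Cdh23, a cadherin best known from hair cells, stood at 2.25, 1.91, 2.50 and 1.20 CPM in F/F and at 0.115 to 0.952 CPM in wild type libraries of 1 week. In the second week it stood at 1.40, 0.658, 0.660, 0.688 and 0.779 CPM in F/F and at 1.33 to 2.91 CPM in wild type. The F/F libraries were all above wild type at 1 week and, but for replicate 1, all below it at 2 weeks, for a difference of -2.88 ± 0.52 (edgeR adjusted p = 0.00206). Lrrc4b and Sez6l2, membrane protein genes known from neurons, went from 1.29 to -1.26 and from 1.38 to -1.08. Igfals, which stabilises circulating IGF complexes, had a difference of -2.56 ± 0.71, the transcription repressor gene Snai3 of -2.34 ± 0.49, the G protein subunit gene Gnb3 of -2.33 ± 0.50 and Klhdc8a of -2.11 ± 0.39. The call of Igfals was lost under the GC correction (adjusted p = 0.0773), without F/F replicate 1 of 1 week (0.0889) and without wild type replicate 6 of 2 weeks (0.0853).

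Among the largest positive differences, Tnfrsf11b (osteoprotegerin) gained 6.49 ± 1.32 and Chil1, a chitinase-like protein gene, 6.05 ± 1.58 (adjusted p = 0.0737 with limma-voom). Scgb3a1, a secretoglobin of airway epithelium, had a fitted difference of 5.99 ± 1.24 (edgeR adjusted p = 0.0039) that rested in part on 1 library. It stood at 0.232, 0.462, 0.610 and 0.849 CPM in F/F and at 2.22, 1.01, 0.137, 0.837 and 20.3 CPM in wild type libraries of 1 week, so that wild type replicate 5 was far above the others. Without it the difference was 3.18 ± 0.87 (adjusted p = 0.0226). At 2 weeks it stood at 0.785, 3.39, 1.79, 2.78 and 3.09 CPM in F/F and at 0.127 to 0.904 CPM in wild type.

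The 4 genes that were called at 1 week took separate courses. Ppm1j, a protein phosphatase gene, stood at 15.6, 15.4, 13.5 and 12.7 CPM in F/F and at 4.88 to 7.80 CPM in wild type libraries of 1 week, fully apart. The libraries of 2 weeks held it at 11.2, 11.2, 10.5, 10.9 and 11.9 CPM in F/F and at 9.88 to 15.8 CPM in wild type, with all F/F libraries inside the wild type range. Its effect went from 1.20 ± 0.16 to -0.14 ± 0.14, a difference of -1.34 ± 0.22 (edgeR adjusted p = 0.00142). The other 3, Selenbp2, H2af-ps2 and Gm42743, were nearly absent from F/F libraries of both times, and their differences were not called (edgeR adjusted p = 0.941, 0.432 and 0.12). Selenbp2, a selenium-binding protein gene, had 7 reads in F/F and 299 in wild type libraries of 1 week and 9 and 331 at 2 weeks. That is 42.9 times lower (95% counting interval 20.6 to 107.7) and 38.1 times lower (19.8 to 84.0) relative to total counts. The histone pseudogene H2af-ps2 had 2 against 913 reads and 7 against 1014, and Gm42743, a predicted gene outside the naming rule, 4 against 61 and 0 against 72. H2af-ps2 is a pseudogene and Selenbp2 has the close paralog Selenbp1, and how reads shared by such copies were assigned was not tested. In all, 80 called genes had an unadjusted p under 0.05 at 1 week and one of at least 0.05 at 2 weeks.

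Effects of the same direction at both times were few. There were 135 genes with an unadjusted p under 0.05 at 1 week, a call at 2 weeks in the same direction and a 95% interval of the difference that includes 0. Of these 14 (10.4%) lie on chromosome 3, the chromosome of Lmna, which holds 4.92% of all genes tested. Tmem144, a membrane transporter gene on it, stood at 31.0, 34.9, 44.1 and 32.1 CPM in F/F and at 46.0 to 71.1 CPM in wild type libraries of 1 week. After 2 weeks it stood at 62.7, 37.9, 35, 28.0 and 27.1 CPM in F/F and at 49.9 to 85.4 CPM in wild type, and its difference was 0.08 ± 0.23 (95% interval -0.39 to 0.55). The histone methyltransferase gene Setdb1 (effects 0.64 and 0.55) and Strit1, a micropeptide gene that activates the calcium pump SERCA (-1.26 and -1.47), lie there too. Uba7, which activates the interferon-induced modifier ISG15 (0.73 and 0.50), and the amino acid transporter gene Slc36a1 (0.70 and 0.52) lie on other chromosomes.

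Calls among genes of the nuclear envelope, the structure that Lmna supports, are set beside those of all genes tested (6.52% higher and 5.88% lower). The lamina list (5.88% higher and 5.88% lower) and the ESCRT list (5.26% higher) were near that share. The list of the LINC complex and the muscle nuclear envelope had 25% called lower. Of 17 lamina and inner nuclear membrane genes 1 was called higher and 1 lower, the latter Tmem201 (SAMP1), which went from 0.36 to -0.77 (difference -1.13 ± 0.23). Lmnb1 (lamin B1) had an effect of 0.29 at 1 week and 1.41 at 2 weeks, a difference of 1.12 ± 0.38 that was not called (edgeR adjusted p = 0.0556). It was called in 9 alternatives, among them DESeq2 (adjusted p = 0.0357), the GC correction (0.037) and the fit without F/F replicate 1 of 2 weeks (0.00924). Of 12 genes of the LINC complex and the muscle nuclear envelope 3 were called lower, and 0 with GC content corrected, where the median difference was -0.39 against -0.37 without the correction. Of 19 ESCRT genes that reseal the envelope 1 was called higher. Smooth muscle and pericyte markers had 2 of 14 called lower, and cytosolic ribosomal protein genes 2 of 39 called higher.

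The 2 week effects of the pools were compared in a fit with separate pools, in which edgeR called 0 of 15627 differences between KIUC035 and KIUC033 (792 at an unadjusted p under 0.05), as did limma-voom (980). Without F/F replicate 2 of 2 weeks, which leaves F/F replicate 1 alone in KIUC033 and assumes that it varies like the other groups, edgeR called 283. Without F/F replicate 1 it called 0. In that fit with separate pools the median difference from 1 week was 1.72 in KIUC033 and 2.64 in KIUC035 for macrophage markers, 0.84 and 1.17 for interferon-stimulated genes, 1.42 and 2.22 for cell cycle genes, and -0.41 and -0.70 for the respiratory chain. Without F/F replicate 1 of 2 weeks the number of called differences rose from 1938 to 2966. It then reached 30 of 41 interferon-stimulated genes, 11 of 17 antigen presentation genes, 13 of 38 structural matrix genes (higher) and 21 of 34 respiratory chain genes (lower). Leaving out F/F replicate 2 of 2 weeks instead lowered the number of called differences to 1130.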

How the data were processed

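Poly-A RNA of mouse hearts was sequenced as single 50-base reads. The authors deposited a count table (reads per gene) and a TPM table, aligned to mm39 with STAR 2.7.9 per the submitters' processing notes. The read counter, annotation and strand setting were not given in the sources used here. CPM columns that the authors deposited belong to another library kit and were not used. The test was edgeR 4.0.16 (R 4.3.3): TMM factors, filterByExpr with a minimum count of 10, a quasi-likelihood fit over 26 libraries with group, sex and pool as terms, and Benjamini-Hochberg adjustment at 0.05. The 5 libraries of 11 days entered no comparison but shared the filter, the scaling, the sex term and the estimate of the spread. Without them 14646 genes were tested and 2162 differences called. Genes were named by rule: Lmna and Cgas, the 8 largest differences each way, up to 4 genes of smallest p per list, genes called at 1 week, and the leading reversing and lasting genes. Of the genes this names, 2 are not reported here. Members and lists were chosen with earlier results of these data known. The code was tested on simulated counts. Alternatives covered scaling, filter, tool (DESeq2 1.42.0, limma 3.58.1), TPM, covariates, pools and each library left out. A per-library GC correction and an atrial score were added after seeing the data. No replicate pair held identical counts.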

Additional observations from a re-analysis of the deposited data

Results flagged for a closer look

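The Lmna effect differed between 1 and 2 weeks, by the test of the difference itself, at 1938 genes. Among the reversing genes of smallest p, 7 had differences of -1.37 (Rbm38), -1.57 (Mybpc3), -1.17 (Apba3), -1.97 (Dpysl4), -1.10 (Pcyt2), 1.20 (Mtpn) and -1.43 (Osbp2) on the log2 scale.

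Single libraries stood far from the rest of their group (Dixon's ratio at the 95% level) in 17 of 148 groups of values tested, where chance gives about 1 in 20. Among wild type libraries of 2 weeks these were Sprr1a at 0.329 CPM and Psat1 at 2.91 CPM in replicate 6, Mybpc3 at 3529 CPM in the same library, Timp1 at 9.65 CPM and Klf15 at 43.8 CPM in replicate 5, and Scgb3a1 at 0.904 CPM in replicate 3. Among wild type libraries of 1 week they were Scgb3a1 at 20.3 CPM in replicate 5 and Mtpn at 54.8 CPM in replicate 2. Replicate 1 of that group stood apart in Myh6 at 6196 CPM, Apln at 10.1 CPM, Dll4 at 8.15 CPM, the cell cycle score at 0.257 and the sarcomere score at -0.238. Among F/F libraries of 1 week they were Zbp1 at 3.93 CPM in replicate 2 and Mybpc3 at 1189 CPM in replicate 4. F/F replicate 1 of 2 weeks stood apart in Cdh23 at 1.40 CPM and in the interferon-stimulated gene score at 0.184.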

How the results depend on the processing

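The count of 1938 changed effects lay between 1486 and 2506 under RLE size factors, library totals, DESeq2, limma-voom, no filter, TPM, fewer libraries, other covariates, pool KIUC035 alone, no mitochondrial genes and an atrial score. It was 3111 with limma-voom and sample quality weights (1639 higher, 1472 lower), 1243 with GC content corrected (464 lower) and 0, 0 and 0 in total, higher and lower with pool KIUC033 alone. Leaving out 1 library gave 1130 to 2966 in total, 574 to 1631 higher and 519 to 1335 lower, and moved the total by over 1.5 times for F/F replicates 1 (1235) and 3 (1209) of 1 week, F/F replicates 1 (2966), 2 (1130) and 3 (1278) and wild type replicate 6 (1133) of 2 weeks. The higher share was 52.6% (1019 against 919). With library totals it was 62.8% (933 against 553), where the median of all genes shifted to 0.14, 0.15 and 0.29 for the difference, the 1 week and the 2 week effect. On TPM it was 72.4% (1535 against 586), with medians of 0.11, 0.10 and 0.21. The 4 calls of 1 week became 20 with DESeq2, 109 without a filter and 3 to 9 with a library left out. The 4562 calls of 2 weeks became 7081 with quality weights, 370 with pool KIUC033 alone and 3046 to 5261 with a library left out. The 356 reversing genes became 223 with library totals, 194 on TPM, 0 with KIUC033 alone, 221 with KIUC035 alone, 102 with GC content corrected and 197 to 463 with a library left out. The 0 differences between pools became 103 without a filter and 0 to 283 with a library left out. The causes were not tested. Genes with no call on the difference changed sign. Selenbp2 was at -0.0082 with limma-voom, -0.63 with KIUC035 alone and -0.13 to 0.62 with a library left out, and Gm42743 at 0.14 on TPM. Tmem144 was at -0.062 without sex, -0.28 with KIUC035 alone, -0.21 with GC content corrected and -0.11 to 0.21 with a library left out. Setdb1 was at 0.12 on TPM, 0.035 with KIUC033 alone and -0.17 to 0.0029 with a library left out, and Uba7 at -0.42 to 0.030. Slc36a1 was at 0.11 on TPM and 0.0024 with GC content corrected. Strit1 was at 0.49 with quality weights, 0.025 on TPM and -0.43 to 0.52 with a library left out. With pool KIUC033 alone the 100 called named genes that could be fitted lost their calls, and Tnfrsf11b was not fitted. With pool KIUC035 alone Saa3 lost its call, as did Plod2, Dnajb9 and Tie1 (adjusted p = 0.0861, 0.0617 and 0.0502, edgeR). Tie1 and Cldn5 lost theirs with library totals (0.0583 and 0.0588), and Cldn5 on TPM (0.0695, limma). No paired analysis was possible because the replicate numbers follow accession order and pair no libraries across groups. Depth limits genes of a few reads, such as Sprr1a, Il1rn and Scgb3a1 at 1 week.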
